A study of Mus musculus with 6 samples.

Results

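The hypoxia-inducible factor (HIF) pathway was examined through 10 named genes: the factor subunits Hif1a, Epas1 and Arnt, the oxygen sensors Egln1 and Egln3, the substrate receptor Vhl, and the targets Car9, Ankrd37, Bnip3 and Ndrg1. In the mouse genome they lie on chromosomes 12, 17, 3, 8, 12, 6, 4, 8, 7 and 15 in the order given. They and the lists used below were taken by name, not by a threshold, but with earlier results of these data known. All 10 genes were among the 20687 gene symbols of the count table and passed its low-count filter (15212 genes tested). The 3 lung samples were digested whole lungs of C57BL/6 mice that had received 100000 KP cells by tail vein 28 days earlier, and each pooled 3 mice of an independent experiment. The 3 cell line samples were triplicate RNA preparations of the KP line itself, a mouse line of C57BL/6 strain. The labels give neither its genotype nor the age of the mice, do not say that the triplicates were separate cultures, and no lung without injected cells is among the samples. P-values therefore measure the spread between these samples, which may be technical in the cell line. Lung samples are a mixture of injected cells and the host's lung cells, and in such bulk tissue fewer cells of a type and less RNA per cell cannot be told apart.

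In oxygenated cells the EGLN enzymes hydroxylate prolines of the HIF alpha proteins, HIF1A and EPAS1 (HIF-2 alpha), and the VHL ubiquitin ligase then marks them for destruction. When oxygen is short the alpha proteins last, pair with ARNT and bind short DNA motifs near their targets, among them genes of glycolysis, pH control, mitophagy and angiogenesis, and Egln3 itself. Much of this control acts on the proteins, which these RNA data do not measure. In lung, EPAS1 is known for its part in vessels and alveolar cells.

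Estimated counts summed to between 17786758 and 22862396 per sample. Markers of lung cell types separated the groups: all 10 endothelial markers were higher in lung, with a summed level of 1418 to 2457 CPM (counts scaled to sequencing depth, with TMM-scaled library sizes) in lung samples and 11.1 to 18.3 CPM in cell line samples. All 8 alveolar type 2 markers were higher too, with 3 of them (Sftpa1, Sftpd and Slc34a2) at 0 counts in the cell line. Of 6 alveolar type 1 markers 5 were higher and 1 did not pass. Their sum was 1695 to 2035 CPM in lung and 76.1 to 184 CPM in the cell line. B and plasma cell markers, of which 6 of 6 were higher, summed to between 178 and 362 CPM in lung and between 50.4 and 93.5 CPM in the cell line. A pair of libraries stood apart. Lung replicate 2 had less of long transcripts, with a median difference from lung replicates 1 and 3 (log2) of 0.71 in the shortest quartile of genes by transcript length and -0.96 in the longest. Cell line replicate 1 correlated with replicates 2 and 3 at 0.965 and 0.964 over log2 CPM of the tested genes, against 0.996 between those. For several results that lean on either library, the value without it is also given.

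Of the 10 genes, Epas1, Vhl and Car9 were higher in lung than in the cell line, Hif1a, Egln1 and Egln3 were lower, and Arnt, Ankrd37, Bnip3 and Ndrg1 did not pass the test (edgeR quasi-likelihood test, Benjamini-Hochberg adjusted p below 0.05 over all genes). Of all genes tested 48.8% were called, 31.3% higher and 17.5% lower, so 6 of 10 is near the background. The groups did not overlap in 6 of the 10 genes, 3 with lung higher and 3 with lung lower, against 62.2% of all genes tested (35.6% and 26.5%). The median log2 fold change (lung minus cell line) was -0.36 over the 10 genes and 0.08 over all genes tested.

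**Figure D1:**
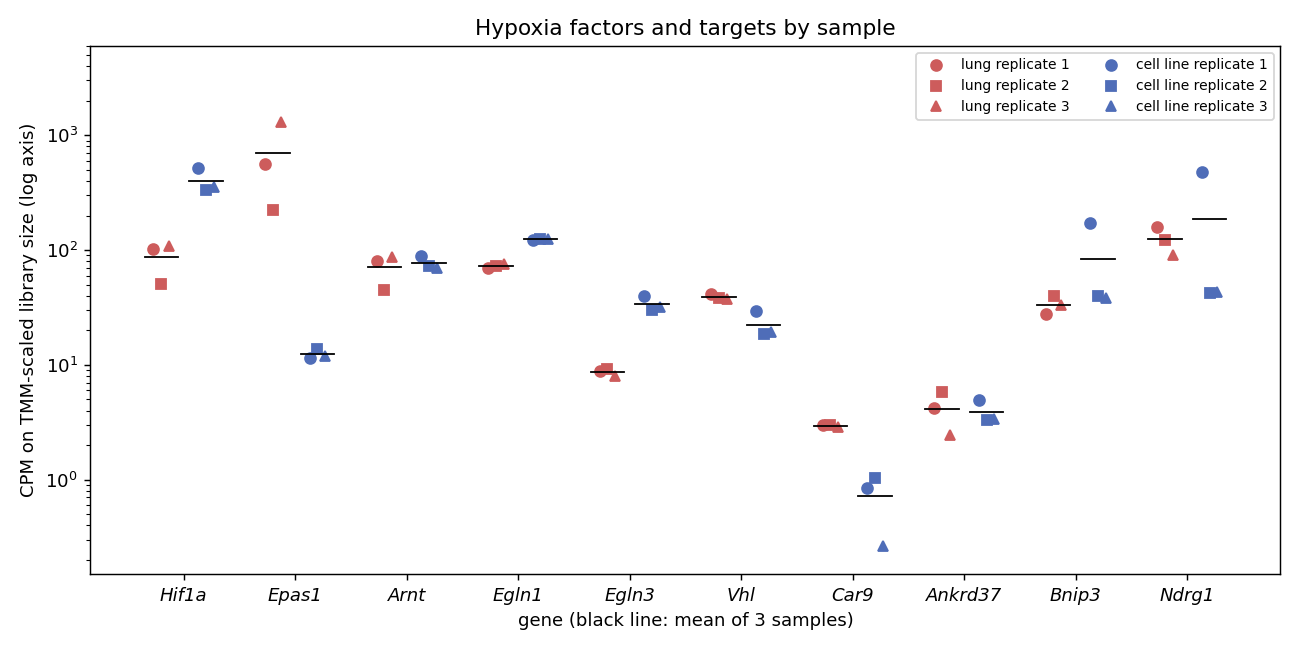
Level of each of the 10 genes in each of the 6 samples, in CPM on a log axis, with lung samples (red) left of cell line samples (blue), marker shapes for replicates 1 to 3 and a black line at each mean. Epas1 runs from 224 to 1302 CPM in lung and from 11.5 to 13.8 CPM in the cell line, and Ndrg1 in cell line replicate 1, at 475 CPM, stands above the other cell line samples.

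The alpha subunits moved in opposite directions. Hif1a, the broadly expressed alpha subunit, had 102, 50.5 and 109 CPM in lung replicates 1, 2 and 3, against 514, 333 and 353 CPM in cell line replicates 1, 2 and 3. Every lung sample was below every cell line sample, with cell line replicate 1 the highest and lung replicate 2 the lowest. Hif1a was 4.59-fold higher in the cell line, with a log2 fold change of -2.20 (SE 0.37, edgeR adjusted p = 0.00159), and between -2.39 and -1.98 with any 1 sample left out.

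Epas1 had 566, 224 and 1302 CPM in lung, against 11.5, 13.8 and 12.0 CPM in the cell line. The lung samples differed among themselves by 5.82 times, and even the lowest, replicate 2, was far above the cell line. The log2 fold change was 5.81 (SE 0.68, edgeR adjusted p = 0.000256), a 56.1-fold difference, and the call held without any 1 sample, at 4.99 without lung replicate 3 and 6.18 without lung replicate 2.

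Lung replicate 2 was low in both alpha genes, whose transcripts are long (a count-weighted 4613 bases for Hif1a and 5516 bases for Epas1). It differed from lung replicates 1 and 3, on the log2 scale, by -1.05 for Hif1a and -1.94 for Epas1, against the median of -0.96 in their length quartile. Endothelial markers were also lowest in that library: their sum was 2090, 1418 and 2457 CPM in lung replicates 1, 2 and 3, the same order as Epas1, and the ratio of Epas1 to that sum was 0.271, 0.158 and 0.530. In the cell line, where that sum was 18.3, 15.6 and 11.1 CPM, the ratio was 0.626, 0.882 and 1.09. Pecam1, the endothelial marker CD31, had 403, 238 and 461 CPM in lung against 4.48, 4.38 and 2.32 CPM in the cell line. Fibroblast and smooth muscle markers had the same order over the lung replicates, at 2866, 1121 and 3097 CPM, and the sums of the other marker lists did not. The part of vessel cells or of other lung cells in the level of Epas1 was not tested.

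Levels of different genes were compared per length, as TPM, a level scaled for depth and transcript length that was computed from the counts and the annotated lengths. On that scale Epas1 made up 83.7 ± 6.39% of the summed level of Hif1a, Epas1 and Hif3a in lung and 2.63 ± 0.755% in the cell line (SD, n = 3 each, as for every value after ± here). Hif1a made up 16.2 ± 6.39% in lung and 97.3 ± 0.768% in the cell line. In each lung sample Epas1 was the larger share, at 82.0, 78.2 and 90.7% in replicates 1, 2 and 3, and in each cell line sample it was 3.31% or less. Hif3a, the third alpha gene, stayed below the low-count filter at 1.44 ± 0.959 CPM in lung, against 0.108 ± 0.0631 CPM in the cell line, where it had 6 counts in all.

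**Figure D2:**
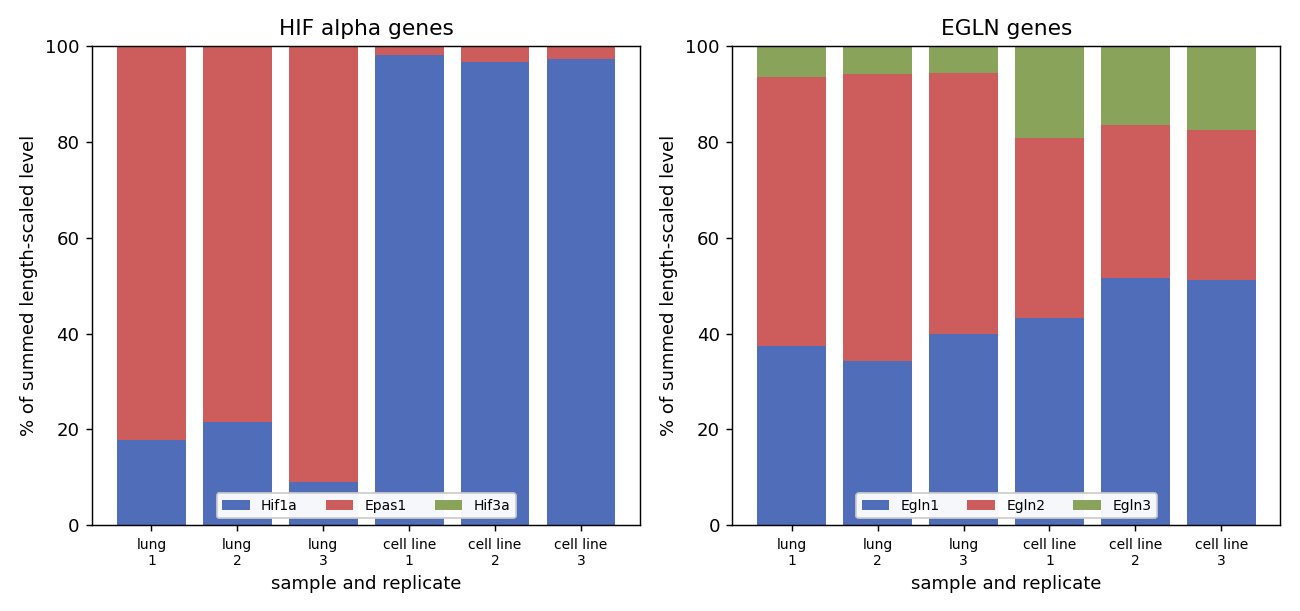
Share of each gene in the summed length-scaled level of its family (in percent), per sample, with lung samples left of cell line samples. Left, Epas1 holds between 78.2 and 90.7% of the HIF alpha genes in lung and at most 3.31% in the cell line; right, Egln2 holds the largest share of the EGLN genes in lung and Egln1 in the cell line.

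Arnt, the partner that both alpha subunits need to bind DNA, had 79.6, 44.6 and 87.3 CPM in lung, against 89.0, 72.3 and 70.3 CPM in the cell line. The groups overlapped, and the log2 fold change was -0.13 (SE 0.30, 95% interval -0.83 to 0.56, edgeR adjusted p = 0.742). Its sign was not stable, at 0.055 without lung replicate 2 and 0.10 with library size alone as the scaling. Arnt2, its paralog, was at 1.87 ± 0.831 CPM in lung, against 3.31 ± 1.34 CPM in the cell line (edgeR log2 fold change -0.82, SE 0.50, adjusted p = 0.209). Per length, Arnt held 98.3 ± 0.265% of the pair in lung and 97.6 ± 0.641% in the cell line.

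Shares of the Arnt transcripts stood apart between the groups although the gene sum did not. Arnt-203 carries a coding exon of 45 bases, or 15 codons, that the main transcript Arnt-202 lacks, shown here in GENCODE M21 coordinates on GRCm38.
Arnt-203 exon 5 (chr3:95466793-95466837, + strand): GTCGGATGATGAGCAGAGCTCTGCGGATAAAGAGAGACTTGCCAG
Arnt-203 took 2.68, 2.32 and 3.78% of the Arnt counts in lung replicates 1, 2 and 3, against 25.3, 29.7 and 33.3% in cell line replicates 1, 2 and 3. The groups were far apart, and in CPM Arnt-203 stood at 2.13, 1.04 and 3.30 in lung against 22.5, 21.5 and 23.4 in the cell line. Arnt-202 took 87.2 ± 2.81% in lung and 63.5 ± 1.91% in the cell line. All 3 of the 10 Arnt transcripts that hold the exon took 5.59 ± 1.80% together in lung and 31.0 ± 3.29% in the cell line. The annotated transcripts also differ at the 3' end, with a last exon of 264 bases in Arnt-203 and of 1937 bases in Arnt-202, so the deposited split does not rest on the exon alone. These shares are a description with no test, and the parts of the exon and of the 3' end were not separated.

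Hif1a counts came mainly from a pair of coding transcripts with different first exons. Hif1a-202, the shorter, took 31.3, 40.0 and 34.7% in lung and 37.3, 24.5 and 23.3% in the cell line. The groups overlapped, with cell line replicate 1 within the range of the lung samples. Epas1 counts came almost wholly from Epas1-201, which took a mean of 99.996% in lung and all counts in the cell line.

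Both oxygen sensor genes of the set, Egln1 and Egln3, were lower in lung, and Vhl was higher. Egln1, which encodes PHD2, the main HIF prolyl hydroxylase, had 69.9, 72.7 and 75.3 CPM in lung, against 122, 126 and 126 CPM in the cell line. Replicates were close and the groups did not overlap. On the log2 scale the difference was -0.78 (SE 0.21, edgeR adjusted p = 0.0164). The call was lost without lung replicate 1 (edgeR adjusted p = 0.0791), lung replicate 3 (0.0559), cell line replicate 2 (0.0593) or cell line replicate 3 (0.0600), with the value between -0.85 and -0.75, and with library size alone (-0.55, edgeR adjusted p = 0.0696). It was also lost when only genes with 10 or more counts in all 6 samples were tested (-0.59, edgeR adjusted p = 0.0565).

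Egln3, which encodes PHD3 and is itself induced by HIF, had 8.87, 9.24 and 7.95 CPM in lung, against 40.2, 29.9 and 32.0 CPM in the cell line. All lung samples were under 10 CPM and all cell line samples well above it. Egln3 was 3.92-fold higher in the cell line, with a log2 fold change of -1.97 (SE 0.25, edgeR adjusted p = 0.000337), and kept its call without any 1 sample, between -2.13 and -1.85. Egln2, the remaining EGLN gene, was at 62.0 ± 9.62 CPM in lung, against 49.4 ± 9.62 CPM in the cell line (edgeR log2 fold change 0.33, SE 0.25, adjusted p = 0.310). Per length, Egln3 made up 5.99 ± 0.381% of the 3 EGLN genes in lung and 17.8 ± 1.36% in the cell line. Egln2 made up 56.9 ± 2.81% in lung and 33.5 ± 3.44% in the cell line, and Egln1 37.2 ± 2.84% in lung and 48.7 ± 4.68% in the cell line.

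Vhl, the substrate receptor that binds hydroxylated HIF alpha, had 41.3, 38.3 and 37.6 CPM in lung, against 29.5, 18.5 and 19.2 CPM in the cell line. Lung samples were higher throughout, and cell line replicate 1 was nearest to them. The difference was 0.80 on the log2 scale (SE 0.26, edgeR adjusted p = 0.0349). It was 1.04 without cell line replicate 1 (edgeR adjusted p = 0.00662). The call was lost without lung replicate 1 (edgeR adjusted p = 0.11), lung replicate 3 (0.0692), cell line replicate 2 (0.189) or cell line replicate 3 (0.166), and with no filter on low counts (0.0610).

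**Figure D3:**
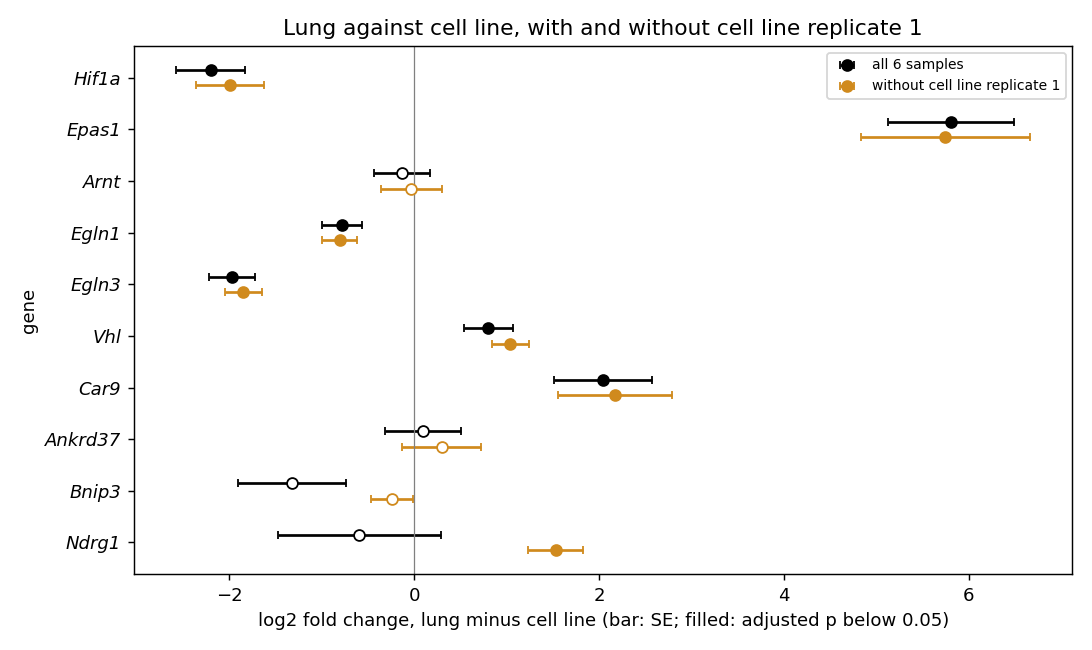
Log2 fold change (lung minus cell line) of the 10 genes with its SE, from all 6 samples (black) and without cell line replicate 1 (orange); filled points passed adjusted p below 0.05. Ndrg1 lies at -0.59 with all samples and at 1.53 without that replicate, and Bnip3 at -1.32 and -0.24.

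The DNA letters that HIF binds were looked up in the promoters of the 10 genes, since the pathway acts through them. RefSeq promoters (GRCm38.p6, 250 bases before to 50 after the start) were at hand for 8 of the 10 genes, all but Epas1 and Ndrg1. The core of the hypoxia response element was searched as ACGTG and as GCGTG on both strands, so that CACGTG counts as ACGTG on each strand. One or the other stood in 7 of the 8 promoters, with Vhl as the exception, and in 43.8% of the 32851 mouse promoters of the same length. The capitals below mark those letters in the promoters of Egln3 and of the targets. Matches in Hif1a, Arnt and Egln1 are counted in the 7 but not printed.
Egln3 (chr12:54203825-54204124, - strand): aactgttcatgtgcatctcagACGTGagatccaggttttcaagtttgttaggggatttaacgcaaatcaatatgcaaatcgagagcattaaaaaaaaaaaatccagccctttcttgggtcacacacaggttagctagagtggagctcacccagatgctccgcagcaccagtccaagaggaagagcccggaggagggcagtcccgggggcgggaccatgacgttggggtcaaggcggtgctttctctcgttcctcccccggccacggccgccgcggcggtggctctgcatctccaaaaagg
Car9 (chr4:43506776-43507075, + strand): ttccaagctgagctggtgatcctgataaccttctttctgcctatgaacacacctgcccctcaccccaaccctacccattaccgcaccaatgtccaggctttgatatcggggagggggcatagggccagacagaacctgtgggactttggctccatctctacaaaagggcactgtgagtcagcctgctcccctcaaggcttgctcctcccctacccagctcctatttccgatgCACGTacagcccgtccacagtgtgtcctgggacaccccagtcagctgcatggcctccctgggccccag
Ankrd37 (chr8:45999801-46000100, - strand): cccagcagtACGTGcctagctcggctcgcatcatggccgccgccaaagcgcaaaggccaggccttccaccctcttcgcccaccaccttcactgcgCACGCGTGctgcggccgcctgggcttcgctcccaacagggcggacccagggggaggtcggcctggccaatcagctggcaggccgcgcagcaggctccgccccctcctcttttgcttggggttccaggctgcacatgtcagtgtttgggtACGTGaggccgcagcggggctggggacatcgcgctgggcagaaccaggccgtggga
Bnip3 (chr7:138909457-138909756, - strand): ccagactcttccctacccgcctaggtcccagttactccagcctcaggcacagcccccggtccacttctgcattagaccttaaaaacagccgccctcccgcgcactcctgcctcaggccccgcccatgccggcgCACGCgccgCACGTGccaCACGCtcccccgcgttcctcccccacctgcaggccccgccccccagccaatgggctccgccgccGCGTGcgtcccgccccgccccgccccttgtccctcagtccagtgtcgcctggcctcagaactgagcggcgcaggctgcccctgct
Egln3 and Car9 each held 1 match, of ACGTG, starting 229 bases before the start in Egln3 and 18 bases before it in Car9. Ankrd37 held 4 matches, 2 of each core. Bnip3 held 5, with 2 of ACGTG in a single CACGTG and 3 of GCGTG. A match is a description of the letters in this window and not a binding site.

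Of the 4 targets, Car9 was higher in lung, and Ankrd37, Bnip3 and Ndrg1 did not pass. Car9, a membrane carbonic anhydrase used widely as a hypoxia marker, had 3.00, 3.01 and 2.86 CPM in lung, against 0.840, 1.04 and 0.263 CPM in the cell line. It was low in both groups, on 198 counts over the lung samples and 41 over the cell line samples, but the groups did not overlap. The log2 difference was 2.04 (SE 0.53, edgeR adjusted p = 0.0132), with the call kept without any 1 sample, between 1.59 and 2.32. It was the lowest of the 10 genes per length in both groups, at 2.96 ± 0.637 TPM in lung and 0.628 ± 0.354 TPM in the cell line.

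Ankrd37, an ankyrin repeat protein, had 4.19, 5.75 and 2.44 CPM in lung, against 4.90, 3.28 and 3.37 CPM in the cell line. The groups overlapped and lung replicate 2 was the highest of all 6 samples. The edgeR log2 fold change was 0.10 (SE 0.41, 95% interval -0.85 to 1.05, adjusted p = 0.857), and -0.27 without lung replicate 2. A retained-intron transcript, Ankrd37-204, took 19.4, 10.7 and 14.8% of its counts in lung. It had 0 counts among the cell line samples, whose 226 counts for the gene allow a share of up to 1.33%. The exons of Ankrd37 share 349 bases with Lrp2bp and 57 bases with Ufsp2 on the other strand. The library kit keeps strand, but the sources used here do not say that counting did, so its level is uncertain to that extent. The same holds for predicted gene models that overlap exons of Hif1a (330 bases), Car9 (214), Bnip3 (504) and Ndrg1 (419 and 137) on the other strand. A further model, Gm49321, shares 148 bases with Hif1a on the same strand, which strand cannot separate.

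The values of Bnip3 and Ndrg1 depended strongly on 1 library. Bnip3, a mitophagy receptor, had 27.7, 39.4 and 33.1 CPM in lung, against 172, 40.1 and 38.3 CPM in the cell line. Cell line replicate 1 was 4.38 times the mean of replicates 2 and 3, which lay at the upper end of the lung range, 1 of them within it. The log2 fold change was -1.32 (SE 0.58, 95% interval -2.66 to 0.02, edgeR adjusted p = 0.0933), and -0.24 without that replicate (edgeR adjusted p = 0.411). Without cell line replicate 2 or 3 it passed, at -1.72 each (edgeR adjusted p = 0.0379 and 0.0417), and it also passed by the DESeq2 Wald test (-1.33, adjusted p = 0.0369). Without cell line replicate 1 and lung replicate 2 together it passed too, at a smaller -0.37 (edgeR adjusted p = 0.0301). That fit takes its spread from the closest pair in each group. Its paralog Bnip3l, or NIX, was at 156 ± 5.38 CPM in lung, against 179 ± 60.4 CPM in the cell line (edgeR log2 fold change -0.20, SE 0.29, adjusted p = 0.599), and 0.10 without cell line replicate 1.

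Ndrg1, a stress-responsive protein of the N-myc downstream regulated family, had 159, 122 and 91.3 CPM in lung, against 475, 41.9 and 43.1 CPM in the cell line. Lung samples lay between cell line replicate 1 and the other cell line samples. Replicate 1 was 11.2 times the mean of replicates 2 and 3, and 31 of 12100 genes with 1 CPM or more in the cell line had a higher ratio. With all samples the log2 fold change was -0.59 (SE 0.88, 95% interval -2.62 to 1.44, edgeR adjusted p = 0.605). Without cell line replicate 1 the direction turned and Ndrg1 was higher in lung, at 1.53 (edgeR adjusted p = 0.00784). Its paralog Ndrg2 rose, at 51.0 ± 1.13 CPM in lung, against 19.0 ± 2.60 CPM in the cell line (edgeR log2 fold change 1.43, SE 0.23, adjusted p = 0.00123), while Ndrg3 stood at 46.8 ± 2.52 CPM in lung, against 48.6 ± 3.17 CPM in the cell line (edgeR adjusted p = 0.857).

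Ordered per length, the lung samples had Epas1 highest at 254 ± 222 TPM, then Ndrg1 at 79.5 ± 28.1 TPM, with ranges that overlapped. Egln1, Hif1a, Bnip3, Arnt and Vhl followed between 37.5 and 26.0 TPM, and each overlapped its neighbour in this run. Ankrd37, Egln3 and Car9 came last without overlap, at 9.57, 6.01 and 2.96 TPM. In the cell line Hif1a was highest at 156 ± 40.3 TPM, with Ndrg1 at 116 ± 156 and Bnip3 at 92.8 ± 86.7 TPM overlapping it in turn, and Bnip3 overlapping Egln1 at 61.6 ± 0.652 TPM. Below that the order was Arnt, Egln3, Vhl, Ankrd37, Epas1 and Car9, with no overlap between neighbours. Those places of Ndrg1 and Bnip3 rest on cell line replicate 1. Ndrg1 was at 296 TPM there and at 25.7 and 26.4 TPM in replicates 2 and 3, below Arnt, and Bnip3 was at 193 TPM there and at 43.2 and 42.2 TPM in replicates 2 and 3, below Egln1. By its mean Epas1 was first in lung and ninth of the 10 in the cell line, at 4.01 ± 0.370 TPM. In lung replicate 2 it was at 58.3 TPM, just under Ndrg1 at 60.5 TPM.

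Other genes of the HIF machinery were read from a list of 23, of which 22 were tested. Of these 1 was higher in lung, 7 were lower and 14 did not pass, against 31.3% and 17.5% of all genes, with a median log2 fold change of -0.54. The HIF-binding chaperone gene Hsp90ab1 fell, at 1148 ± 24.5 CPM in lung, against 4682 ± 581 CPM in the cell line (edgeR log2 fold change -2.03, SE 0.30, adjusted p = 0.000824). Hsp90aa1 fell as well, at 411 ± 47.2 CPM in lung, against 1365 ± 409 CPM in the cell line (edgeR adjusted p = 0.00318). Cited2, which competes with HIF alpha for the coactivators CBP and p300, was at 45.5 ± 4.60 CPM in lung, against 114 ± 52.9 CPM in the cell line (edgeR log2 fold change -1.32, SE 0.34, adjusted p = 0.0134), and the value was -0.88 without cell line replicate 1. The 1 higher gene was P4htm, a transmembrane prolyl hydroxylase, at 4.97 ± 1.06 CPM in lung, while the cell line samples had 8 counts together, named after its value was seen. Without lung replicate 2 the number lower was 13 of 23 tested. Over the whole table it rose as well, from 2664 of 15212 genes to 3773 of 15531.

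Most of the other hypoxia targets that passed were lower in lung. Of 36 listed, 35 were in the table and tested. Of these 4 were higher (against 31.3% of all genes), 15 lower (against 17.5%) and 16 did not pass, with a median log2 fold change of -0.62. The glucose transporter gene Slc2a1 had 37.1, 31.6 and 42.3 CPM in lung, against 283, 150.1 and 159 CPM in the cell line (edgeR log2 fold change -2.42, SE 0.33, adjusted p = 0.000532). The mitochondrial adenylate kinase gene Ak4 fell most, at 1.95 ± 0.347 CPM in lung, against 22.7 ± 10.7 CPM in the cell line (edgeR log2 fold change -3.54, SE 0.41, adjusted p = 0.000228). Without cell line replicate 1 the values were -2.07 for Slc2a1 and -3.10 for Ak4. Stc2, a secreted stanniocalcin, had 6.51, 3.89 and 4.99 CPM in lung, against 103, 24.0 and 22.0 CPM in the cell line, and the edgeR value of -3.28 on the log2 scale shrank to -2.17 when cell line replicate 1 was dropped. The enolase gene Eno1, at -2.38, and the aldolase gene Aldoa, at -1.39 (edgeR log2 fold changes), were also lower, both named after their values were seen.

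The 4 targets higher in lung were Ndufa4l2, Lox, Adm and Pfkfb4, the last named after its value was seen. Ndufa4l2, Lox and Adm had few cell line counts and were not tested when 10 or more counts in all 6 samples were required. Ndufa4l2, a mitochondrial protein of respiratory control, had 15.6, 31.5 and 13.8 CPM in lung, while the cell line samples had 5 counts together (edgeR log2 fold change 7.79, SE 0.74, adjusted p = 9.77e-05), and dropping cell line replicate 1 gave 9.23, dropping replicate 3 gave 7.19. Lox, the collagen-crosslinking lysyl oxidase, had 82.3, 36.0 and 77.2 CPM in lung, against 0.373, 0.346 and 0.158 CPM in the cell line (edgeR log2 fold change 7.77, SE 0.53, adjusted p = 3.09e-05). Fibroblast and smooth muscle markers, all 9 higher in lung, summed to 2866, 1121 and 3097 CPM in lung replicates 1, 2 and 3 and to between 27.8 and 33.5 CPM in the cell line, and their part in the level of Lox was not tested. Adm, the vasodilator adrenomedullin, had 6.07, 8.31 and 6.23 CPM in lung, against 1.12, 0.230 and 0.263 CPM in the cell line (edgeR log2 fold change 3.63, SE 0.63, adjusted p = 0.00178, and 4.75 without cell line replicate 1). Pfkfb4, a regulator of glycolysis, stood at 41.4 ± 9.88 CPM in lung, against 8.71 ± 0.213 CPM in the cell line (edgeR log2 fold change 2.25, SE 0.27, adjusted p = 0.000275).

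Vegfa, the angiogenic ligand and classical HIF target, had 380.2, 172 and 476 CPM in lung, against 669, 129 and 135 CPM in the cell line. As with Ndrg1, lung samples lay between cell line replicate 1 and the others. The log2 fold change was 0.14 (SE 0.69, 95% interval -1.44 to 1.72, edgeR adjusted p = 0.880), and 1.37 without cell line replicate 1 (edgeR adjusted p = 0.0505).

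**Figure D4:**
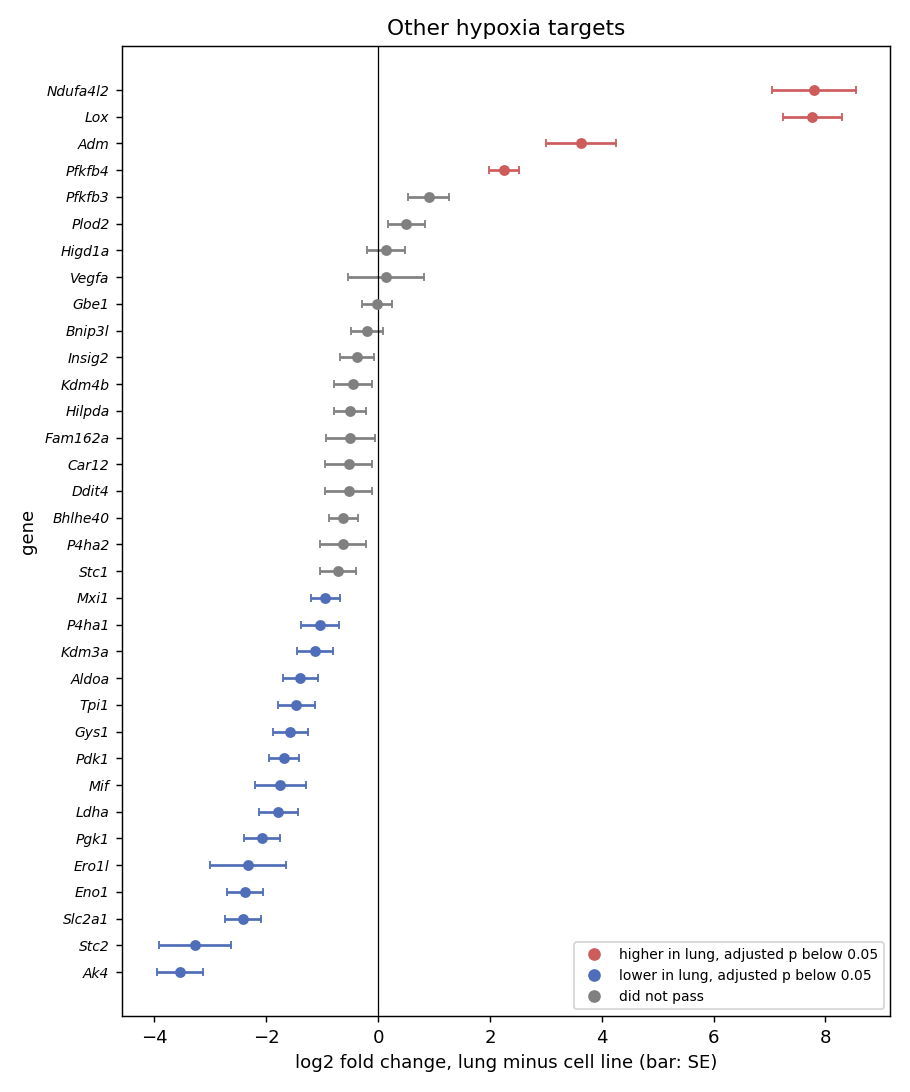
Log2 fold change (lung minus cell line) with its SE for tested genes of the list of other hypoxia targets, in order of size. The 15 blue genes were lower in lung, from Ak4 at -3.54 to Mxi1 at -0.95, and the 4 red genes were higher, from Pfkfb4 at 2.25 to Ndufa4l2 at 7.79.

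The carbonic anhydrase family of Car9 was read for comparison. Car4, an isozyme of lung capillaries, stood at 77.7 ± 18.3 CPM in lung while no cell line sample had a count, which makes lung at least 1496-fold higher (0 counts taken as 3 over the group). Car14 averaged 6.95 ± 1.48 CPM in lung, and a single cell line count (1) was found for it (ratio 402, 95% exact Poisson interval 72.1 to 15869, counting error only). Car3 had 13.5, 127 and 50.3 CPM in lung, while the cell line had 18 counts (edgeR log2 fold change 7.66, SE 0.94, adjusted p = 0.000325), with 6.61 without lung replicate 2. Cytosolic Car2 rose to 78.9 ± 8.69 CPM in lung, against 12.6 ± 5.08 CPM in the cell line (edgeR adjusted p = 0.000574), and mitochondrial Car5b fell, at 15.4 ± 2.0 CPM in lung, against 33.1 ± 5.61 CPM in the cell line (edgeR log2 fold change -1.10, SE 0.25, adjusted p = 0.00724). Car12, the other isozyme known as a HIF target, was at 1.86 ± 0.673 CPM in lung, against 2.68 ± 0.211 CPM in the cell line (edgeR adjusted p = 0.331).

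The spread within the cell line was uneven across the pathway. Among the 9 of the 10 genes with 1 CPM or more in the cell line, replicate 1 was at 4-fold or more of the mean of replicates 2 and 3 in 2, Ndrg1 and Bnip3, against 1.64% of the 12100 genes at that level. Among 32 other hypoxia targets it was 3, with the growth factor gene Vegfa at 5.07, the oxidoreductase gene Ero1l at 4.82 and Stc2 at 4.5 times. Ddit4 at 2.80, P4ha2 at 2.34 and Ak4 at 2.12 times came next, while Ldha stood at 0.641 and Eno1 at 0.719 times. Ero1l, Ddit4, P4ha2, Ldha and Eno1 were named with their values known. The factors, the sensors and Vhl ranged from 0.891 for Epas1 and 0.969 for Egln1 to 1.5 for Hif1a and 1.57 for Vhl. The median ratio was 1.47 over the 9 genes, 1.49 over the other targets and 1.01 over all 12100 genes. This sets 1 preparation beside the other 2, with no test.

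**Figure D5:**
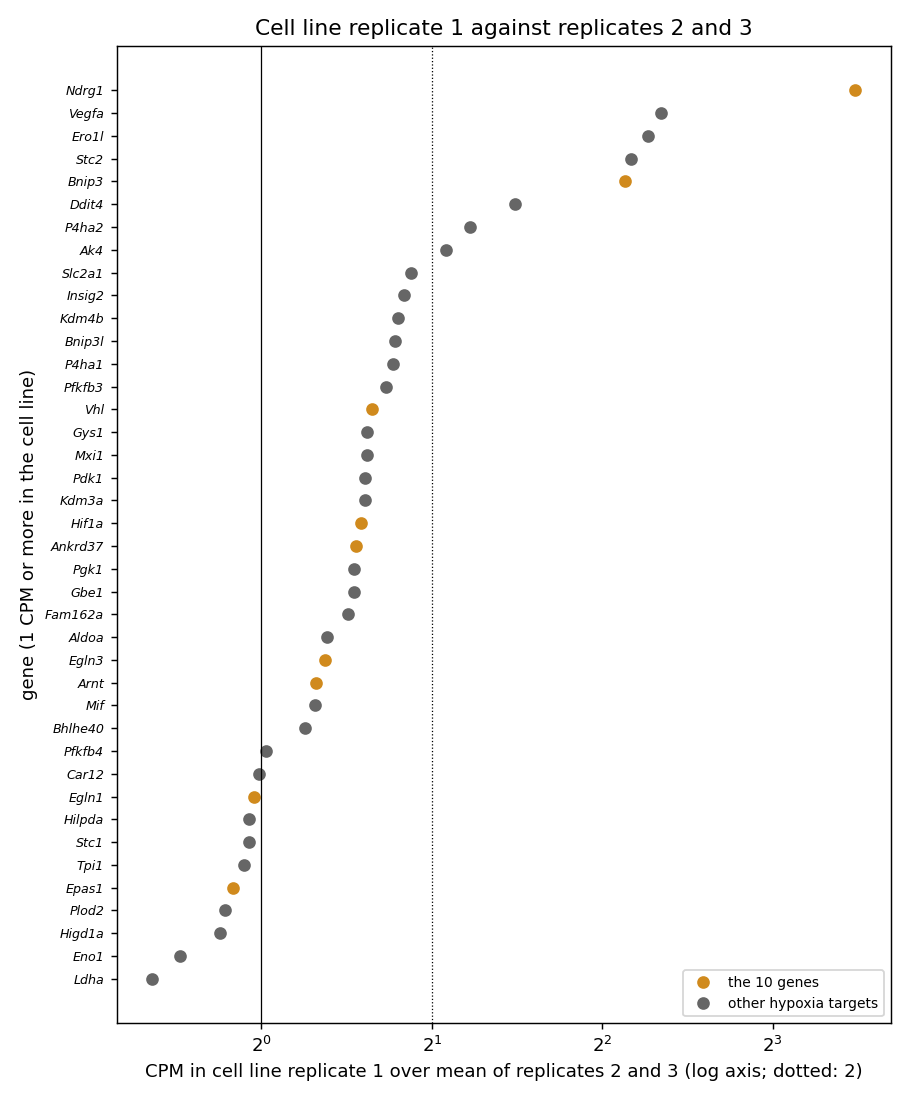
CPM in cell line replicate 1 divided by the mean of replicates 2 and 3 (log axis), for the 9 genes of the set (orange) and other hypoxia targets (grey) with 1 CPM or more in the cell line; the dotted line marks a ratio of 2. Ndrg1 stands out at 11.2, Vegfa, Ero1l, Stc2 and Bnip3 lie between 4 and 6, and Ldha is at 0.641.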

How the data were processed

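RNA-seq of 3 lung and 3 cell line samples was used. The authors deposited estimated counts per transcript, 1 column per sample, with totals from 17786758 to 22862396. The tools listed, per the submitters' processing notes, are Salmon 1.4.0, FastQC 0.11.9 and DESeq2 1.32.0, with GRCm39 as the build. What DESeq2 did, the annotation and any filter were not given in the sources used here. Of 76776 transcripts, 76521 (99.67%) matched GENCODE M21 (GRCm38, used for names, lengths and the Arnt exon) and were summed to 20687 symbols; unmatched transcripts held 0.11 to 0.42% of a sample's counts. Sums were rounded and tested with the quasi-likelihood test of edgeR 4.0.16 (R 4.3.3). The fit was robust, with TMM scaling, an expression filter by group and group as the only term. P was adjusted over 15212 genes. The SE is the absolute log2 fold change divided by the root of F. CPM use TMM-scaled libraries; TPM were computed from the counts and annotated, not effective, lengths. A count of 0 allows 3 counts; such floors and intervals cover counting error only.

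The 10 genes and all lists were chosen with earlier results of these data known. Genes were named by rule: the 10 genes, Vegfa, Slc2a1, Adm, Hif3a and Pecam1, and the 3 largest changes each way per list at 5 CPM or more in the higher group, plus paralogs. Alternatives were scaling by library size alone or by DESeq2 size factors, no filter, 10 or more counts in all 6 samples, the Wald test of DESeq2 1.42.0, limma-voom (limma 3.58.1), a replicate block, each sample left out, and 2 libraries left out together. An item of the target list is counted but not reported by name or drawn here.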

Additional observations from a re-analysis of the deposited data

How the results depend on the processing

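Over the whole table, scaling by library size alone called 5210 genes higher and 1728 lower. Of those calls 75.1% were higher, whereas TMM scaling gave 64.1%, and the median of all genes moved up by 0.23 (log2). Among the 10 genes that scaling left 3 higher and 2 lower, and the value of Arnt turned to 0.10 and that of Bnip3l to 0.028. Requiring 10 or more counts in all 6 samples gave 2555 higher and 1701 lower calls over the table. Of the 32 targets then tested 2 were higher, and the Arnt value was 0.053. Of the HIF machinery 0 genes were then higher by edgeR (0 at unadjusted p below 0.05). Under the usual filter edgeR, DESeq2 and limma-voom each gave 1, which by edgeR was P4htm, with 8 cell line counts. The stricter filter drops genes near 0 in 1 group, Car9 and P4htm included, so P4htm could not be counted there. It also drops Adm, Lox and Ndufa4l2, so these targets could not be counted there either. Of the 9 genes of the set that it kept, 2 were higher and 2 lower. With no filter 2 machinery genes were higher. Leaving out 1 sample gave 4249 to 5190 genes higher and 1820 to 3773 lower over the table. Among the 10 genes it gave 2 to 4 higher and 2 to 3 lower, in the machinery 1 to 2 higher and 6 to 13 lower, and among the targets 4 to 6 higher and 13 to 17 lower. The log2 fold change then ran from -0.31 to 0.055 for Arnt, -0.27 to 0.37 for Ankrd37, -1.13 to 1.53 for Ndrg1, -0.29 to 1.37 for Vegfa, -0.40 to 0.10 for Bnip3l and -0.85 to 0.14 for Ddit4. Without cell line replicate 1 and lung replicate 2 together, 6657 genes were higher and 5425 lower. Of the 10 genes 5 were then higher and 4 lower, of the machinery 6 and 14, and of the targets 7 and 18. Values there were 0.22 for Arnt (edgeR adjusted p = 0.0436), 1.56 for Ndrg1, 0.094 for Bnip3l, 0.10 for Ddit4 and 0.11 for P4ha2. That fit takes its spread from the closest pair in each group, so its counts and adjusted p-values are not comparable with the others. Limma-voom gave 0.35 for Ndrg1. Ero1l was at -2.33 with all samples and at -1.15 without cell line replicate 1. With lung replicate 2 left out, Ero1l no longer passed (edgeR adjusted p = 0.0701). Causes of these differences were not tested beyond what the settings themselves remove.

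The labels give both groups replicate numbers 1 to 3, but nothing says that a number pairs samples, and deviations of same-numbered samples from their group means correlated at -0.048, 0.087 and -0.097 over the tested genes. With the replicate block 4634 genes were higher and 2526 lower, Ndrg1 was at 0.41, and Egln1 missed the threshold (edgeR adjusted p = 0.0681). Depth limits the precision of genes with few cell line counts, such as Car9 with 41 over the 3 samples.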
